A study of Mus musculus with 6 samples.

Results

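The enzymes of nucleotide excision, base excision and mismatch repair, of DNA end joining and of translesion synthesis were followed as transcripts in CT26 cells given irinotecan. A list of 50 repair genes was looked up by symbol among the 11604 genes of the expression table. It named 13 genes of nucleotide excision, 14 of base excision, 5 of mismatch repair, 10 of end joining and 7 of translesion synthesis, which all had a row. Mgmt, the direct reversal enzyme for alkylated guanine, had no row in the table analysed here, which left 49. CT26 is a colon carcinoma line of BALB/c mice, and its genotype is labelled WT in every library. RNA came from 3 libraries of cells given 10 µM irinotecan (CPT-11) for 24 h and from 3 libraries of cells given DMSO, for which the labels state no time of their own. Whether the libraries of a group came from separate cultures is not labelled, so p-values measure the spread between these libraries, which may be technical.

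Irinotecan is a prodrug whose product, SN-38, traps DNA topoisomerase I on the strand it has cut, and replication forks that meet the trapped enzyme turn such nicks into broken ends. Nucleotide excision repair cuts out bulky lesions, base excision repair starts with a glycosylase that removes an altered base, and mismatch repair corrects errors left by replication. End joining ligates broken ends, and translesion polymerases copy past lesions that stop the replicative enzymes. The comparison asked which of these transcripts differed between irinotecan and DMSO.

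The libraries held 17049072 to 17294496 counts with irinotecan and 16052326 to 16649571 counts with DMSO, and a repair gene had between 70 and 14763 counts in a library. The 49 genes took 0.281% to 0.289% of all counts with irinotecan and 0.272% to 0.274% with DMSO. Cdkn1a, the p53 target that encodes p21, averaged 497 ± 27.4 CPM with irinotecan and 314 ± 32.6 CPM with DMSO (SD, n = 3 each; edgeR adjusted p = 5.24e-07), where CPM are counts scaled to library size. Trp53 averaged 226 ± 1.82 CPM with irinotecan and 238 ± 5.97 CPM with DMSO (edgeR adjusted p = 0.284). Of 8 intestinal epithelial markers 3 were listed, Krt18 at 42.6 to 47.85 CPM with irinotecan and 50.8 to 57.6 CPM with DMSO, Krt20 at 42.1 to 51.3 CPM with irinotecan and 44.2 to 47.8 CPM with DMSO, and Cdh17 at 1.90 to 2.73 CPM with irinotecan and 0.440 to 1.23 CPM with DMSO. The others, Epcam, Cdh1, Krt8, Vil1 and Cdx2, had no row. Of 8 haematopoietic markers Cd68 was listed, at 3.72 to 4.23 CPM with irinotecan and 2.01 to 3.07 CPM with DMSO. Of 4 fibroblast markers Pdgfra was listed, at 10.1 to 11.96 CPM with irinotecan and 8.94 to 9.17 CPM with DMSO, and none of 4 endothelial markers was. No gene of the table has a count of 0, so a marker with no row cannot be given a level, and the part of other cells in the results was not tested. In such bulk RNA, fewer cells of a type and less RNA per cell cannot be told apart.

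Most repair transcripts moved little. With irinotecan 8 of the 49 genes rose, 2 fell and 39 did not pass, at a threshold of 0.05 on the p-value adjusted over all 11599 genes tested (edgeR's quasi-likelihood test, Benjamini-Hochberg adjustment). That is 20.4% of the repair genes, and 22.1% of all genes tested were called, 11.8% higher and 10.3% lower. With total counts as the only scaling, 1631 genes of the table were higher and 835 lower, against 1369 and 1190, while the repair genes still stood at 8 higher and 2 lower. The share among repair genes is close to that of the whole table. The median log2 fold change of irinotecan over DMSO was 0.07 over the repair genes and 3e-04 over all genes tested. For 45 of the 49 repair genes (91.8%) the 95% interval of the fold change lay within 1.5-fold in either direction, as it did for 79.2% of all genes tested. The 4 exceptions were Ercc5, Polk, Mbd4 and Nhej1, and the estimate itself passed 1.5-fold for Ercc5 and Polk. Irinotecan libraries all lay above the DMSO libraries in 11 repair genes and all below them in 4, while 19.3% of all genes tested were so placed above, 17.8% below and 37.1% in either direction.

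**Figure D1:**
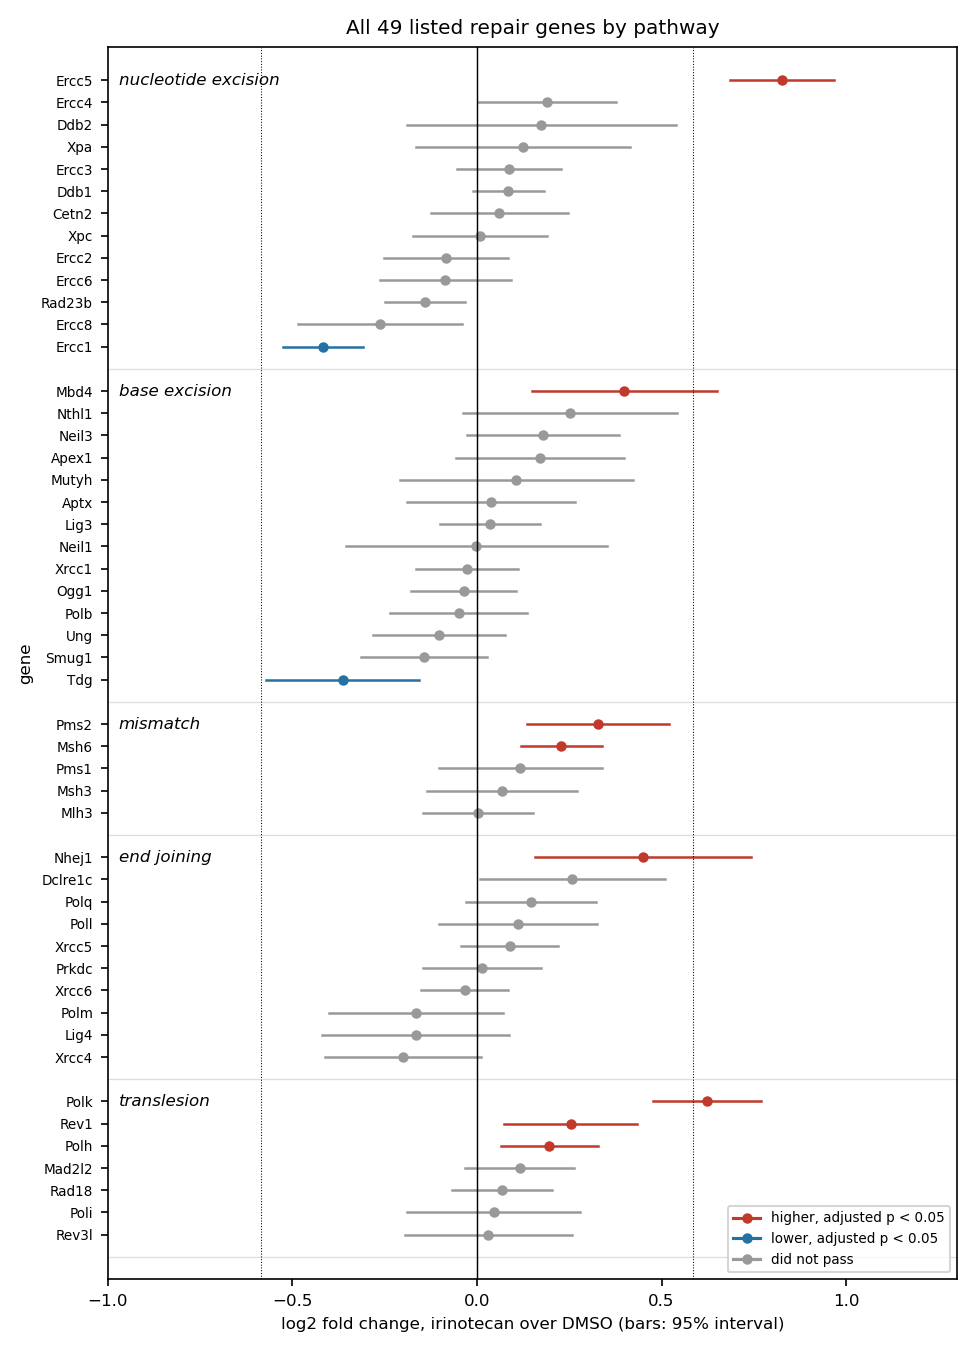
Log2 fold change of irinotecan over DMSO (horizontal axis) for each of the 49 repair genes, grouped by pathway, with 95% intervals from the edgeR fit over all genes and dotted lines at a change of 1.5-fold. Ercc5 (0.83) and Polk (0.62) lie past the right line, and Ercc1 (-0.42) and Tdg (-0.36) are the genes that fell.

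In nucleotide excision repair 1 of 13 genes rose, 1 fell and 11 did not pass, and both calls concern the incision nucleases. Ercc5 (ENSMUSG00000026048, chromosome 1, 44186904 to 44220420, plus strand, GRCm39) encodes XPG, the nuclease that cuts on the 3′ side of the lesion. It stood at 62.6, 71.65 and 67.9 CPM with irinotecan, against 37.6, 38.4 and 38 CPM with DMSO. Every irinotecan library lay far above the DMSO libraries, which were nearly equal to each other. The log2 fold change was 0.83 ± 0.0677 (SE, adjusted p = 1.73e-08), a rise of 77.2%. Bivm, 2974 bases away, averaged 34.6 CPM with irinotecan and 32 CPM with DMSO (adjusted p = 0.376).

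Ercc1 (ENSMUSG00000003549, chromosome 7, 19078703 to 19090449, plus strand), the partner that the XPF nuclease needs to cut on the 5′ side, went the other way. It stood at 196, 212 and 207 CPM with irinotecan, against 261, 294.5 and 265 CPM with DMSO. No irinotecan library reached the lowest DMSO library. On the log2 scale the change was -0.42 ± 0.0525 (SE, adjusted p = 6.61e-06), so Ercc1 fell by 25.1%. Cd3eap overlaps Ercc1 by 511 bases on the other strand, averaged 44.8 CPM over all libraries and had a log2 fold change of -0.23 (adjusted p = 0.0194). Use of strand in counting is not stated in the labels, so whether reads from such shared stretches were told apart is not known. Of the repair genes 15 share such a stretch. Overlaps were taken from the start and end of each gene, introns included, so they do not show how many counts are shared. Ercc4, which encodes XPF itself, had 32.6, 26.4 and 26.6 CPM with irinotecan, against 25.5, 24.7 and 24.9 CPM with DMSO. These groups did not overlap, yet the log2 fold change of 0.19 did not pass (adjusted p = 0.143).

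No damage sensor was called. Xpc, which recognises distorted DNA, averaged 20.4 ± 1.07 CPM with irinotecan and 20.3 ± 0.483 CPM with DMSO, and the interval of its log2 fold change ran from -0.17 to 0.19. Ddb2, the lesion-binding subunit of UV-DDB, averaged 5.91 ± 1.03 CPM with irinotecan and 5.23 ± 0.872 CPM with DMSO, with a wider interval from -0.19 to 0.54. Human XPC and DDB2 are known p53 targets, as CDKN1A is. The p53 targets among the repair genes were not compared as a set, so Xpc and Ddb2 do not stand for the rest. Ddb1, the large UV-DDB subunit and an adaptor of the CUL4 ubiquitin ligases, averaged 816 ± 29.2 CPM with irinotecan and 769 ± 17.7 CPM with DMSO, groups that were apart but not past the threshold (adjusted p = 0.203). Rad23b, the stabilising partner of XPC, averaged 279 ± 15.4 CPM with irinotecan and 307 ± 17.8 CPM with DMSO (adjusted p = 0.0605).

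Among the remaining genes of the pathway the difference was widest for Ercc8, which encodes CSA of transcription-coupled repair, at 13.7, 13.2 and 16.4 CPM with irinotecan, against 15.8, 17.98 and 18.2 CPM with DMSO. Its groups overlapped, and the log2 fold change of -0.26 did not pass (adjusted p = 0.0844). Ercc6, which encodes CSB of the same branch, had a log2 fold change of -0.09. The TFIIH helicase genes Ercc2 and Ercc3 had -0.08 and 0.09. Xpa, the damage-verifying scaffold, had 0.13, and Cetn2, which encodes the centrin of the XPC complex, 0.06. Ncbp1, at 146 CPM and with a log2 fold change of -0.18, overlaps Xpa by 17057 bases on the other strand, so the level of Xpa is uncertain.

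In base excision repair 1 of 14 genes rose, 1 fell and 12 did not pass, and both calls were glycosylases that act on thymine or uracil mispaired with guanine. Tdg, thymine DNA glycosylase (chromosome 10, 82465662 to 82486633, plus strand), had 18.7, 20.85 and 20.01 CPM with irinotecan, against 24.7, 29.6 and 22.4 CPM with DMSO. All irinotecan libraries lay below the DMSO libraries, of which replicate 2 was the highest. Its log2 fold change was -0.36 ± 0.0994 (SE, adjusted p = 0.012), but the gene was not called without irinotecan replicate 1 or DMSO replicate 2 (adjusted p 0.00108 to 0.0988 over 13 alternative settings). Glt8d2, at 4.64 CPM, overlaps Tdg by 367 bases on the other strand.

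Mbd4, a glycosylase that binds methylated CpG (chromosome 6, 115817658 to 115830332, minus strand), had 13.96, 13.01 and 11.9 CPM with irinotecan, against 10.2, 8.53 and 10.7 CPM with DMSO. The groups were apart, with DMSO replicate 2 the lowest. Its log2 fold change was 0.40 ± 0.121 (SE, adjusted p = 0.0217), but the gene was not called without irinotecan replicate 1 or 2 or DMSO replicate 2 (adjusted p 0.00715 to 0.112 over 13 alternatives). Ung and Smug1, the other uracil glycosylases of the list, had log2 fold changes of -0.10 and -0.14 and did not pass.

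No glycosylase for oxidised bases was called. Nthl1, which removes oxidised pyrimidines, had 8.28, 8.245 and 9.26 CPM with irinotecan, against 8.10, 7.18 and 6.38 CPM with DMSO, the widest difference of the pathway that did not pass (log2 fold change 0.25, adjusted p = 0.211). Ogg1 and Mutyh, which remove 8-oxoguanine and the adenine paired with it, had log2 fold changes of -0.04 and 0.11. Neil3 had 0.18, and Neil1 averaged 7.56 ± 1.06 CPM with irinotecan and 7.58 ± 1.88 CPM with DMSO. Of the later steps, Apex1, the abasic site endonuclease, had a log2 fold change of 0.17, and Polb, the gap-filling polymerase, -0.05. Xrcc1, the scaffold, had -0.03, Lig3, its ligase partner, 0.03, and Aptx, which clears abortive ligation ends, 0.04. Apex1 shares 1072 bases of its 2.17 kb with Pip4p1 on the other strand, so its level is uncertain.

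In mismatch repair 2 of 5 genes rose and 3 did not pass. Msh6, which detects mispaired bases (chromosome 17, 88282490 to 88298320, plus strand), had 138, 134 and 132 CPM with irinotecan, against 116, 109 and 119 CPM with DMSO. The gap between the groups was wider than the range within either. Its log2 fold change was 0.23 ± 0.0524 (SE, adjusted p = 0.00352). Fbxo11 overlaps Msh6 by 34 bases on the other strand. Pms2, an endonuclease subunit (chromosome 5, 143846782 to 143870786, plus strand), had 34.4, 26.8 and 30.4 CPM with irinotecan, against 24.2, 25.65 and 23.04 CPM with DMSO. The irinotecan libraries were widely spread, and the lowest lay just above the highest DMSO library. Its log2 fold change was 0.33 ± 0.0924 (SE, adjusted p = 0.0141), but the gene was not called without irinotecan replicate 1 (adjusted p 0.00209 to 0.123 over 13 alternatives). Pms1, a MutL homologue, averaged 13.9 ± 0.680 CPM with irinotecan and 12.8 ± 0.978 CPM with DMSO (log2 fold change 0.12, adjusted p = 0.473). Msh3, which detects larger loops, had 0.07, and Mlh3, another MutL homologue, averaged 36.4 ± 0.574 CPM with irinotecan and 36.3 ± 1.04 CPM with DMSO.

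In end joining 1 of 10 genes rose and 9 did not pass. Nhej1, which encodes XLF, a filament-forming partner of XRCC4 (chromosome 1, 75006298 to 75101844, minus strand), had 8.56, 7.84 and 9.38 CPM with irinotecan, against 6.78, 6.26 and 5.84 CPM with DMSO. The groups were apart at a low level. Its log2 fold change was 0.45 ± 0.141 (SE, adjusted p = 0.026), but DESeq2 did not call it, nor was it called without irinotecan replicate 1 or 3 or DMSO replicate 2 or 3 (adjusted p 0.0132 to 0.105 over 13 alternatives). Xrcc5 and Xrcc6, which encode the Ku subunits that bind the broken end, had log2 fold changes of 0.09 and -0.03, and Prkdc, the kinase they recruit, 0.01. All 3 intervals lay within 1.5-fold. Desi1, at 96.8 CPM, overlaps Xrcc6 by 41340 bases on the other strand, so the level of Xrcc6 is uncertain.

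Xrcc4 and Lig4, scaffold and ligase of the last step, had log2 fold changes of -0.20 and -0.17 and did not pass. Xrcc4 averaged 14.2 ± 0.875 CPM with irinotecan and 16.3 ± 1.13 CPM with DMSO, with all irinotecan libraries below the DMSO libraries (adjusted p = 0.173). Dclre1c, which encodes the end-trimming nuclease Artemis, had 13.1, 13.99 and 16.2 CPM with irinotecan, against 11.4, 10.8 and 14.04 CPM with DMSO. Its groups overlapped, and the log2 fold change of 0.26 was the widest of the pathway that did not pass (adjusted p = 0.134). Poll and Polm, the gap-filling polymerases, had 0.11 and -0.16, and Polq, the polymerase of microhomology-mediated joining, 0.15.

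In translesion synthesis 3 of 7 genes rose and 4 did not pass. Polk (ENSMUSG00000021668, chromosome 13, 96617198 to 96679087, minus strand) encodes polymerase kappa, a Y-family enzyme that copies past bulky adducts on guanine. It had 53.8, 59.75 and 58.96 CPM with irinotecan, against 35.6, 39.6 and 36.7 CPM with DMSO. The lowest irinotecan library was far above the highest DMSO library. Its log2 fold change was 0.62 ± 0.0705 (SE, adjusted p = 1.55e-06), a rise of 54.1%.

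The other calls of the pathway were smaller. Polh, polymerase eta, which copies past ultraviolet dimers (chromosome 17, 46482281 to 46513571, minus strand), had 53.04, 54.6 and 55.2 CPM with irinotecan, against 48.3, 46.7 and 47.2 CPM with DMSO. The groups were apart and tight. The log2 fold change was 0.20 ± 0.0633 (SE, adjusted p = 0.0301), and it was not called with DESeq2 or when any 1 library was left out (adjusted p 0.00931 to 0.0867 over 13 alternatives). Rev1, the deoxycytidyl transferase that recruits other polymerases (chromosome 1, 38091867 to 38168882, minus strand), had 31.03, 35.2 and 35.6 CPM with irinotecan, against 25.8, 28.2 and 31.4 CPM with DMSO. Here the groups overlapped, since the lowest irinotecan library was below the highest DMSO library. On the log2 scale Rev1 changed by 0.25 ± 0.0866 (SE, adjusted p = 0.0393), which did not pass with DESeq2, nor without irinotecan replicate 2 or 3 or DMSO replicate 1 or 2 (adjusted p 0.00696 to 0.176 over 13 alternatives). Eif5b overlaps Rev1 by 2794 bases on the other strand and had a log2 fold change of -0.17.

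Mad2l2, the accessory subunit of polymerase zeta, averaged 45.3 ± 1.82 CPM with irinotecan and 41.8 ± 2.72 CPM with DMSO (log2 fold change 0.12, adjusted p = 0.268). Rev3l, the catalytic subunit, had 0.03, Poli, polymerase iota, 0.04, and Rad18, the ligase that ubiquitinates PCNA at stalled forks, 0.07.

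**Figure D2:**
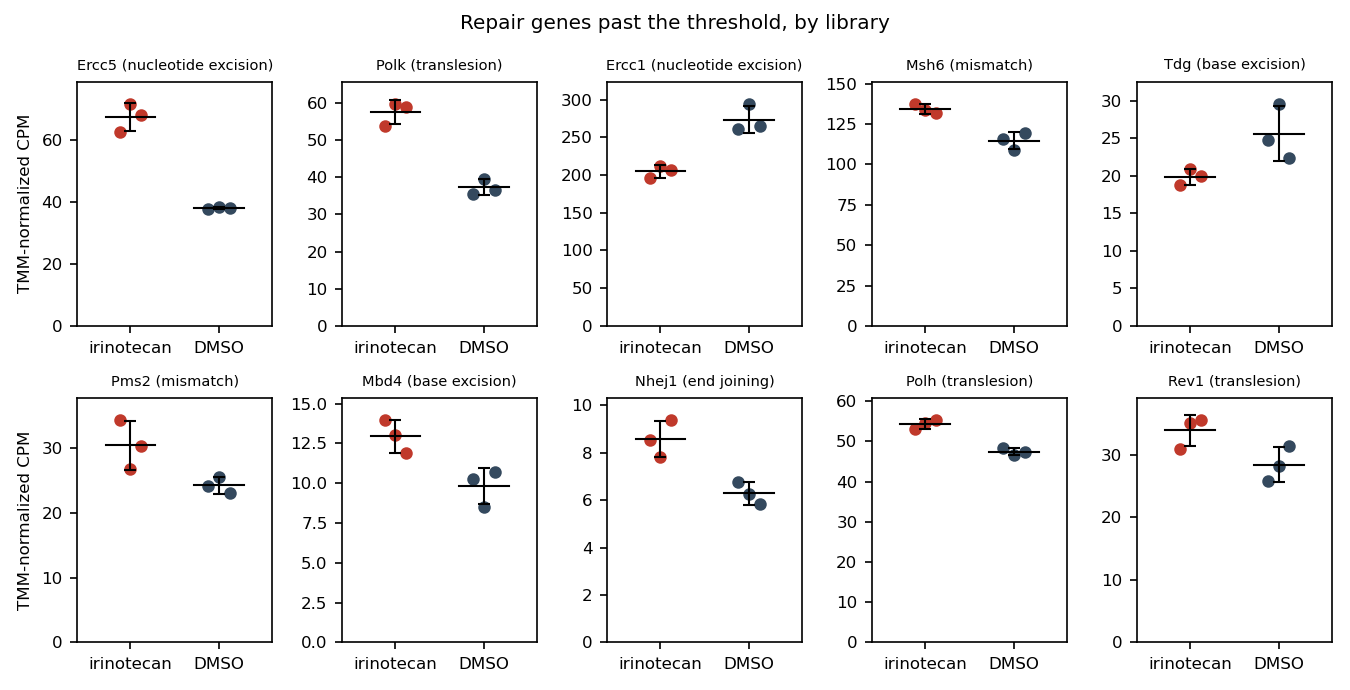
TMM-normalized CPM (vertical axes) of the 10 repair genes past the threshold, with irinotecan left of DMSO; points are libraries, lines are means and bars are SD (n = 3 each). The groups are apart in each gene except Rev1, with Ercc5 at 62.6 to 71.65 CPM with irinotecan and 37.6 to 38.4 CPM with DMSO.

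Calls for 4 of the 10 genes, Ercc5, Ercc1, Polk and Msh6, held under all 13 alternative settings, and the other 6 were lost in at least 1. The authors' deposited table placed 7 repair genes under an adjusted p of 0.05, 5 higher and 2 lower with irinotecan, all among these 10. It rests on the same counts, so its calls are not separate support, and its share over all genes was not counted. DESeq2, 1 of the alternatives, called the same 7 repair genes and 19.2% of all genes tested.

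**Figure D3:**
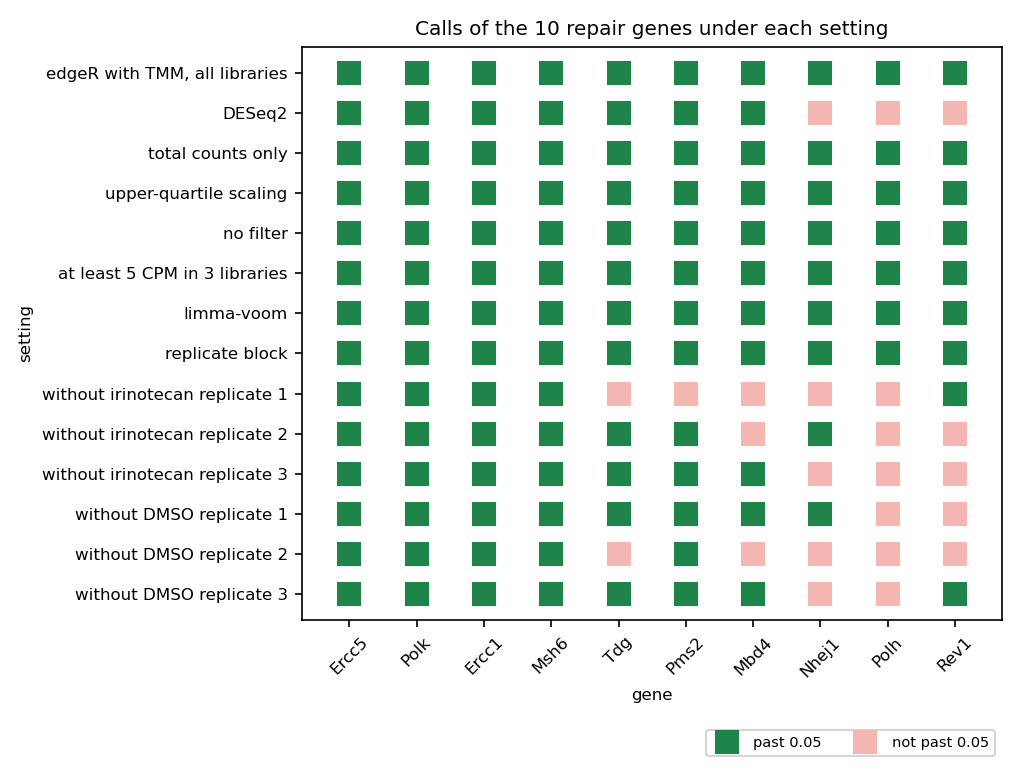
Whether each of the 10 repair genes was past an adjusted p of 0.05 under each setting, with the colours of past and not past in the legend. Ercc5, Polk, Ercc1 and Msh6 are past under every setting, and Polh is lost whenever 1 library is left out.

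The stretches around the start sites of these 4 genes are shown because their changes held under every setting. They are RefSeq promoters on the GRCm38.p6 build, not the build of the expression table, from 250 bases before to 50 bases after the start, written 5′ to 3′ along the gene. RefSeq gave 50 promoters for 42 of the 50 repair genes, and Polk has a pair. Xpc, Ddb2, Ercc3, Polb, Prkdc, Poll, Poli and Rev3l had none here. Capitals mark matches on either strand to the GC box GGGCGG, the CCAAT box CCAAT, the E2F sites TTTCCCGC or TTTGGCGC, or the p53 half-site, and matches can overlap.
Ercc1, chr7:19344821-19345120, plus strand: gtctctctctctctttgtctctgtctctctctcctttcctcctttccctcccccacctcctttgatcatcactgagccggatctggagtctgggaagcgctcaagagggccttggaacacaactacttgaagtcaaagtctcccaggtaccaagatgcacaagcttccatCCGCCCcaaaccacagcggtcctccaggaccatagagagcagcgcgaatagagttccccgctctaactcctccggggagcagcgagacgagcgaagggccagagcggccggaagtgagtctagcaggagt
Ercc5, chr1:44147494-44147793, plus strand: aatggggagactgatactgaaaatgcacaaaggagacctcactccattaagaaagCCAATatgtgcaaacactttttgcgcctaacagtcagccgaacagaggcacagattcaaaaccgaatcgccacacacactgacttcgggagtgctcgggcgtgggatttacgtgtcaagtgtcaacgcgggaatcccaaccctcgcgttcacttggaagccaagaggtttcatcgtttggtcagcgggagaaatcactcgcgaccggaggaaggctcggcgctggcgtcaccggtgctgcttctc
Msh6, chr17:87974800-87975099, plus strand: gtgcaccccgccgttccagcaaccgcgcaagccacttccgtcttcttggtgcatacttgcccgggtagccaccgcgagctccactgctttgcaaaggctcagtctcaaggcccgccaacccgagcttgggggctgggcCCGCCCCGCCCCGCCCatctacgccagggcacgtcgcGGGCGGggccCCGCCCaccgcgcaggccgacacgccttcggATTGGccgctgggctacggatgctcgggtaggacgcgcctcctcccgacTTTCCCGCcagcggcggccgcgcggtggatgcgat
Polk, chr13:96519138-96519437, minus strand: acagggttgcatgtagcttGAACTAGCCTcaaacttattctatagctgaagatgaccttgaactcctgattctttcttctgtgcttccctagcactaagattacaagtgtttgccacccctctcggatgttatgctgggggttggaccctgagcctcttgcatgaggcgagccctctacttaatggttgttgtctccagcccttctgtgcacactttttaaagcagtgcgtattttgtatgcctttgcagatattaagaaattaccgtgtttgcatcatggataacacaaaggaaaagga
Polk, chr13:96542530-96542829, minus strand: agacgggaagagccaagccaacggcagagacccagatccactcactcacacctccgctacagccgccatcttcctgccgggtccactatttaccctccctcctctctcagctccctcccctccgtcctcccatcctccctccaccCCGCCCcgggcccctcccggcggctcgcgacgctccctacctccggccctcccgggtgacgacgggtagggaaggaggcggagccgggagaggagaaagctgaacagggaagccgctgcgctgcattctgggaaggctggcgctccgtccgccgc
Msh6 held 5 GC boxes, a CCAAT box and an E2F site, Ercc1 held 1 GC box and Ercc5 held 1 CCAAT box. Of the Polk stretches, the first shown held a p53 half-site and the other a GC box. As Polk is on the minus strand, the first lies downstream of the other, at an internal annotated start. Which start these cells use was not tested. Of all 32851 promoters of this length, 35.7% held the GC box, 37.4% the CCAAT box, 1.56% an E2F site and 8.36% a p53 half-site. Among the 50 promoters of repair genes, 33 held the GC box, 27 the CCAAT box, 3 an E2F site and 4 a p53 half-site. Such matches describe letters and not binding.

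Levels differed more between repair genes than between the groups. Per gene length, as mean FPKM from the deposited values, Ddb1 was the most abundant, at 128 FPKM with irinotecan and 119 FPKM with DMSO. Ercc1 followed at 66.5 FPKM with irinotecan and 86.9 FPKM with DMSO, and Rad23b at 49.1 FPKM with irinotecan and 52.97 FPKM with DMSO. At the other end Dclre1c had 1.565 FPKM with irinotecan and 1.28 FPKM with DMSO. The median level over the 49 genes was 4.56 FPKM with DMSO, and 28 genes were under 5 FPKM. Ercc5 had 11.6 FPKM with irinotecan and 6.41 FPKM with DMSO, and Polk had 10.45 FPKM with irinotecan and 6.64 FPKM with DMSO. Across the 49 genes, which are not independent replicates, Spearman's rho with the log2 fold change was -0.1 for the FPKM level with DMSO and 0.16 for the span of the gene.

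**Figure D4:**
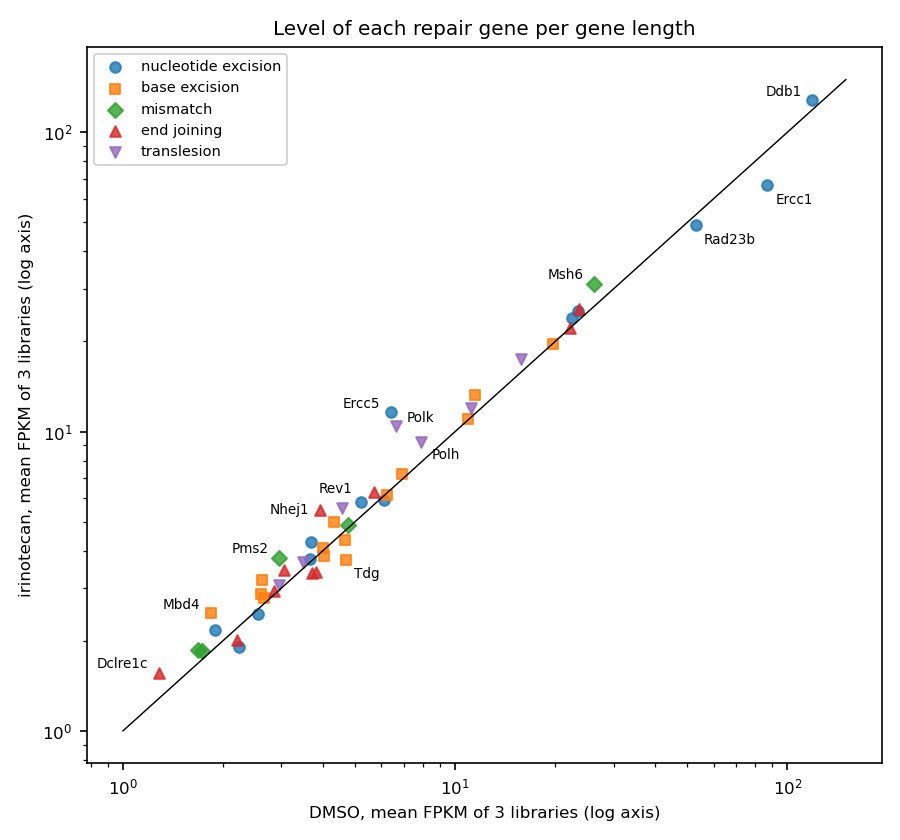
Mean FPKM with irinotecan (vertical, log axis) against mean FPKM with DMSO (horizontal, log axis) for each repair gene, 3 libraries each, with symbols for the pathway and the line of equality. Ercc5 and Polk lie above the line and Ercc1 below it.

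Several of these proteins work as partners, so counts of partner genes were divided by each other within each library, which removes any scaling between libraries. In 3 of 10 pairs the groups were apart. Each of these holds a gene already called from the same counts, so the ratios are not separate support. How often other pairs of genes lie apart was not counted, while 37.1% of single genes tested did. Ercc1 counts relative to Ercc4 stood at 6.01, 8.02 and 7.78 times with irinotecan, against 10.2, 11.9 and 10.7 times with DMSO, a difference of -0.60 on the log2 scale. Nhej1 relative to Xrcc4 stood at 0.571, 0.547 and 0.707 times with irinotecan, against 0.452, 0.372 and 0.342 times with DMSO (log2 difference 0.65). Both pairs hold a called gene and a partner that did not pass.

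Polk relative to Polh, polymerases of the same family, stood at 1.01, 1.09 and 1.07 times with irinotecan, against 0.737, 0.849 and 0.776 times with DMSO (log2 difference 0.43). For these 3 pairs the exact two-sided permutation test gave p = 0.1, the smallest that 3 against 3 libraries allow, and 0.333 after Benjamini-Hochberg adjustment over 10 pairs, so no pair could pass. In the other 7 pairs the groups overlapped, with log2 differences between -0.06 and 0.16. Among them was the Ku pair Xrcc5 to Xrcc6, at 0.12. The pairs were chosen with the values known, and ratios of counts carry the lengths of both genes.

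**Figure D5:**
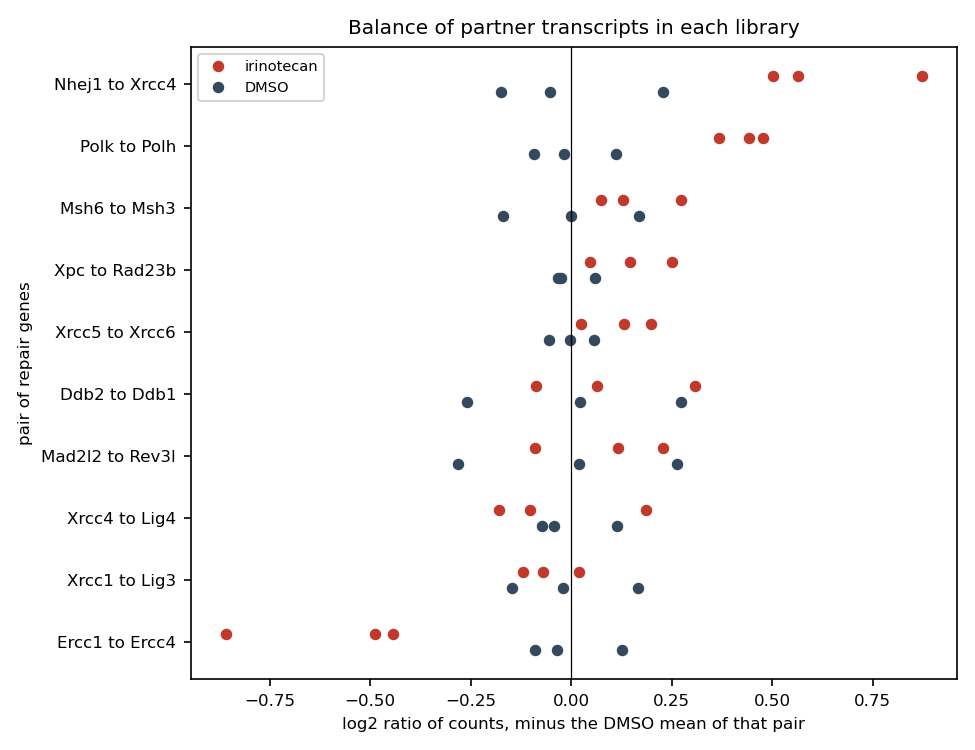
Log2 ratio of the counts of the first gene to those of the second in each library, minus the DMSO mean of that pair (horizontal axis), for 10 pairs (vertical axis); points are libraries, coloured by group. The groups are apart for Nhej1 to Xrcc4, Polk to Polh and Ercc1 to Ercc4.

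Other genes of the same pathways were read from a second list of 52, of which 50 had a row (Neil2 and Dntt had none). With irinotecan 3 rose, 4 fell and 43 did not pass, which is 14% called. That is below the 22.1% of all genes tested, of which 11.8% were higher and 10.3% lower. These shares were not tested against each other, so the calls below describe single genes and not the list. Over the second list the median log2 fold change was -0.05. In mismatch repair Exo1, the exonuclease that removes the strand with the error, averaged 30.4 ± 3.66 CPM with irinotecan and 22.4 ± 1.89 CPM with DMSO, and its log2 difference was 0.44 ± 0.0958 (SE, adjusted p = 0.00242). In translesion synthesis, where 3 of 7 genes of the first list rose, 0 of these 14 rose and 1 fell. Their median log2 fold change was -0.06. The gene that fell was Pold2, a subunit that polymerases delta and zeta share. Pold2 averaged 89.4 ± 1.93 CPM with irinotecan and 105 ± 5.34 CPM with DMSO, and its log2 difference was -0.23 ± 0.0559 (SE, adjusted p = 0.00602). Exo1 and Pold2 kept their calls under all 13 alternatives. Pcna, the clamp that RAD18 modifies, averaged 406 ± 19.1 CPM with irinotecan and 424 ± 16.4 CPM with DMSO (adjusted p = 0.386).

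The calls of 4 further genes on the second list were lost under some settings. Aplf, an end-processing factor that binds XRCC1 and XRCC4, had a log2 difference of 0.30 ± 0.0948 (SE, adjusted p = 0.0276), past the threshold under 8 of 13 alternatives (adjusted p 0.00968 to 0.157). Shld2, a shieldin subunit, had 0.34 ± 0.109 (SE, adjusted p = 0.0304), past it under 9 (0.0138 to 0.141). Rif1, which acts with 53BP1 against end resection, had -0.18 ± 0.0544 (SE, adjusted p = 0.0238), past it under 9 (0.000543 to 0.145). Gtf2h1, a TFIIH subunit, had -0.16 ± 0.0561 (SE, adjusted p = 0.0499), past it under 4 (0.00292 to 0.27).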

How the data were processed

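RNA of 3 irinotecan and 3 DMSO libraries was analysed, grouped by their labels, although the series text mentions duplicates. The submitters' processing notes name StringTie 1.3.4d, edgeR 3.24.3, fastp 0.19.3, DESeq2 1.22.1, featureCounts 1.6.2, HISAT2 2.1.0 and the GRCm39 build, with no role given. The counts deposited by the authors are whole numbers per gene and library, not normalized. Their lowest sum over the libraries is 58 and no value is 0, so the table lacks genes with lower counts. The deposited FPKM values, which divide by gene length, were used to compare levels between genes. The log2 fold change in the authors' deposited table runs DMSO over irinotecan, as its counts show, and its adjusted p-values, deposited by the authors, were used for 1 count of calls.

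Counts were fitted in R 4.3.3 with edgeR 4.0.16 (filterByExpr, which kept 11599 genes, TMM, glmQLFit and glmQLFTest), and p-values were adjusted over all genes tested. The SE was derived from the log2 fold change and its F statistic. The fit was tested on simulated data. Alternatives were DESeq2 1.42.0, limma-voom (limma 3.58.1), 2 other scalings, 2 other filters, a replicate block and each library left out. Ratios of partner genes were tested by exact permutation (scipy 1.17.1). Counts of replicates differed beyond sampling noise in every pair within a group (4.24 to 6.45 for the ratio of chi-square to its degrees of freedom). Members and lists were chosen with earlier results of these data known. Genes past the threshold are given with each library's value. Of the genes that did not pass, the one with the widest difference in each pathway and those named for their role are given. Of the second list up to 2 higher and 2 lower called genes per pathway are named. Results of some genes are not reported here.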

Additional observations from a re-analysis of the deposited data

How the results depend on the processing

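The 10 called repair genes kept their direction under the 13 alternatives. Of the values of single repair genes, 579 kept direction and side of the threshold, 23 lost the call, 7 gained one and 28 changed sign. The sign changes were in genes that had not passed. Neil1 had 0.030 with total counts only, 0.011 with upper-quartile scaling, 0.0060 with a filter of at least 5 CPM in 3 libraries, 0.023 with limma-voom and 0.0078 with the replicate block, against -0.0013. Xrcc1 had 0.0045 with total counts only, against -0.026. Mlh3 had -0.0007 with DESeq2, against 0.0031. With 1 library left out, log2 fold changes ran from -0.040 to 0.23 for Xpa, -0.026 to 0.049 for Xpc, -0.023 to 0.15 for Cetn2, -0.20 to 0.12 for Neil1, -0.12 to 0.036 for Polb, -0.068 to 0.051 for Xrcc1, -0.097 to 0.11 for Aptx, -0.019 to 0.021 for Mlh3, -0.079 to 0.0074 for Xrcc6, -0.041 to 0.069 for Prkdc, -0.049 to 0.13 for Poli and -0.089 to 0.16 for Rev3l. None of the values that changed sign was past the threshold, and the median log2 fold change of the repair genes stayed between 0.04 and 0.10. With DESeq2 5 repair genes rose (0 in end joining, 1 in translesion synthesis) and 1 of the second list. With total counts as the scaling, 2 genes of the second list fell. With 1 library left out, 804 to 1211 genes of the table rose and 589 to 1151 fell. Of the repair genes 4 to 8 then rose (1 in nucleotide excision in each case, 0 to 2 in base excision, 1 to 2 in mismatch repair, 0 to 1 in end joining, 1 to 2 in translesion synthesis) and 1 to 3 fell (1 to 2 in nucleotide excision, 0 to 1 in base excision). Of the second list 1 to 3 rose and 1 to 6 fell. The fewest repair genes, 5, were called without irinotecan replicate 1 or without DMSO replicate 2. The share of all genes tested that was called fell as well, from 22.1% to 12% and 14.7%. The cause was not tested.

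The labels share replicate numbers, but nothing says that a number pairs samples, and the correlations of same-numbered deviations were 0.12, 0.04 and 0.08, so the numbers were not taken as pairs. Every library correlated best with its own number, a hint from the data and not the design. With the replicate block 13 repair genes were called, the 10 and Ddb1, Ercc8 and Rad23b: 9 higher and 4 lower, of which 2 and 3 in nucleotide excision. Among all genes, 1808 genes were then higher and 1820 lower, which is 31.3% of those tested. Of the second list 4 then rose and 9 fell. Depth was not varied, so its part was not tested.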
